A study of Mus musculus with 6 samples.

Results

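Foxl2, Runx1, Fst, Irx3, Irx5 and Nr0b1, 6 genes of pregranulosa cells and of ovary formation, were read in whole testes of E16.5 mouse fetuses. They were taken by gene symbol from a table of 42747 genes and predicted loci, and each symbol matched 1 row. The samples were 3 cKO and 3 WT testis libraries, and the study counts 3 mice per genotype. Its title places CK1α, a serine/threonine kinase encoded by Csnk1a1, in Sertoli cells, and cKO was therefore read as a conditional knockout of that gene in those cells. The labels name no Cre driver, deleted exon or strain, and no alleles for the WT mice. Csnk1a1 itself stood at 395, 404 and 377 CPM in cKO testes and at 370, 395 and 347 CPM in WT testes (log2 fold change 0.08, edgeR adjusted p = 0.798). The deleted part is not given and the whole organ was read, so this value does not check the labels.

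The fetal gonad forms either testis cords around Sertoli cells or an ovary with pregranulosa cells, from a common pool of supporting cell precursors. FOXL2, a forkhead transcription factor, and RUNX1, a runt-domain transcription factor, act together in the mouse to keep fetal granulosa cells from taking up Sertoli features. Follistatin, the product of Fst, binds and blocks activins and is produced downstream of WNT4 and RSPO1 in the fetal ovary. The Iroquois homeobox factors IRX3 and IRX5 mark pregranulosa cells and take part in their contacts with oocytes. NR0B1, also called DAX1, is an orphan nuclear receptor that restrains NR5A1; it is needed in the testis as well, and is also found in steroid-producing cells.

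Promoter sequence in the RefSeq table (build GRCm38.p6) was found for 4 of the 6 genes, with 5 windows in all because Runx1 has 2 starts. The windows of the 3 genes that rose are shown, to set their letters beside their levels. Each is the 250 bases before the start, 5′ to 3′ on the strand of the gene, and capitals mark CG dinucleotides.
Foxl2, chr9:98955357-98955606, plus strand: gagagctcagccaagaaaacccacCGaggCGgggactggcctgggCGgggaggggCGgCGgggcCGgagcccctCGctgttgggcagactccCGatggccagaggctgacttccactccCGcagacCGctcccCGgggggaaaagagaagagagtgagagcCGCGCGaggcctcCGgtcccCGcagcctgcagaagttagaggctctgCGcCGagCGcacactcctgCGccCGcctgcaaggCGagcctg
Runx1 downstream start, chr16:92697330-92697579, minus strand: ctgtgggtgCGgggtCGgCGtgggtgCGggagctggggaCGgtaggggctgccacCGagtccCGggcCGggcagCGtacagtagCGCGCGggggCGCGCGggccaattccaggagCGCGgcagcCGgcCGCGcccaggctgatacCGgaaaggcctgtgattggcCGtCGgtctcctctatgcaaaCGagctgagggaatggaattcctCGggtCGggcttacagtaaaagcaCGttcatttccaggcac
Runx1 upstream start, chr16:92826075-92826324, minus strand: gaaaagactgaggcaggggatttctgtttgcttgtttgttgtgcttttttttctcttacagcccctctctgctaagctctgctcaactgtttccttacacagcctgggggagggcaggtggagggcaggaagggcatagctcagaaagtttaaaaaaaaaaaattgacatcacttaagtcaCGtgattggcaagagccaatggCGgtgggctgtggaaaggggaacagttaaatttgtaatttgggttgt
Nr0b1, chrX:86191525-86191774, plus strand: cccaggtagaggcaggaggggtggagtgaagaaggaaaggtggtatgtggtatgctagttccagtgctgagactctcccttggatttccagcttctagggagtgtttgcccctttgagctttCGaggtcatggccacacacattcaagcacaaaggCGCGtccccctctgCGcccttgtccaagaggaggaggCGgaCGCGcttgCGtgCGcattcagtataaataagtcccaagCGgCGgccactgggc
The Foxl2 window held 22 CG dinucleotides at 70.8% G and C, and the downstream Runx1 window 27 at 67.6%. The upstream Runx1 window held 2 at 45.6%, and the Nr0b1 window 11 at 57.2%, where the median over all 32851 windows of the table was 52.4%. Both strands of all 5 windows, that of Irx3 included, were searched for short motifs. The TCF/LEF letters CTTTGAT (in 3.21% of all windows) and CTTTGAA (4.46%), the FOX letters GTAAACA (3.17%), the NR5A1 letters AAGGTCA (4.08%), the RUNX letters TGTGGTT (4.40%) and the GATA letters AGATAA (9.99%) had no match in any of them. The SOX letters ACAAAG, in 5408 of the 32851 windows, matched once, in the Nr0b1 window from -101 to -96 relative to the start. The TCF/LEF pair differ only in their last letter, and the SOX letters, read on the other strand, share their first letters with both. These letters say nothing about binding outside the windows.

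Foxl2, Runx1 and Nr0b1 rose in cKO testes, Fst and Irx3 were not called, and Irx5 had too few counts to be tested. Counts were compared by the quasi-likelihood test of edgeR, over 18383 genes, and called at a Benjamini-Hochberg adjusted p under 0.05. Of the 5 regulators tested, 3 were called higher and none lower, where 1.50% of all tested genes were called higher and 3.35% in either direction. In edgeR 4 of the 5 had an unadjusted p under 0.05. The share of all genes at that unadjusted level is not given, so such counts, here and for later lists, have no background. Counts by DESeq2 are to be read beside its larger number of calls over all genes, given at the end. The choice of these genes was made with results of the data known, so the counts are a description. Whole-organ RNA does not tell fewer cells of a type from less RNA per cell. CPM are counts scaled to library totals with TMM factors, for comparing libraries, and FPKM are the deposited values per gene length, for comparing genes.

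**Figure D1:**
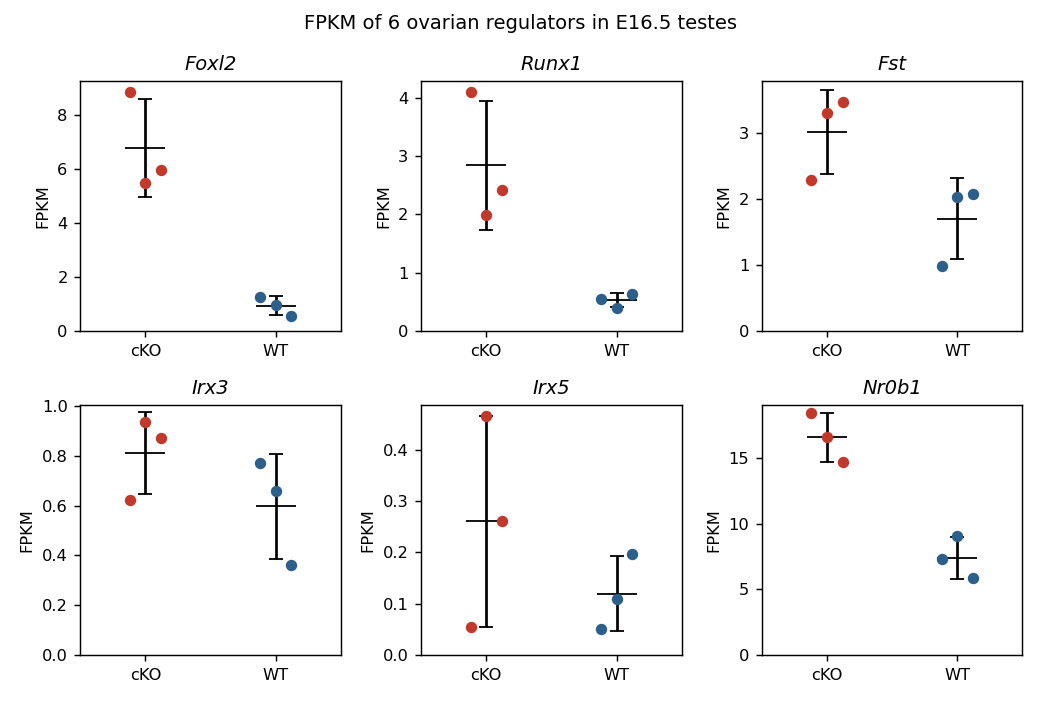
Deposited FPKM (vertical axes, each from 0) of the 6 genes in each library, cKO left and WT right, with the mean and SD of 3 libraries as black marks. The cKO and WT points lie apart for Foxl2, Runx1, Nr0b1 and Fst, and overlap for Irx3 and Irx5.

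Foxl2 had the largest fold change of the 5 regulators tested. Its level was 11.04, 6.84 and 7.46 CPM in cKO libraries 1, 2 and 3, against 1.61, 1.20 and 0.716 CPM in WT libraries 1, 2 and 3. Every cKO library lay above every WT library, with library 1 the highest of its group. The means were 8.45 ± 2.27 CPM in cKO testes and 1.18 ± 0.450 CPM in WT testes (SD, n = 3 each), a 7.19-fold ratio, with a log2 fold change of 2.84 (SE 0.365 and 95% confidence interval 2.04 to 3.64, edgeR adjusted p = 0.00141). These levels rest on 168, 103 and 130 counts in cKO and on 26, 18 and 12 counts in WT. The lowest WT count of 12 has an exact 95% Poisson interval of 6.20 to 21.0, for counting error only. By C57BL/6NJ coordinates, as the files give them, Foxl2 (MGP_C57BL6NJ_G0035656) lies on chromosome 9, plus strand, from 103163368 to 103164608, a single-exon model of 1241 bases. The RefSeq gene in GRCm38 spans 2520 bases, so reads from the rest of the transcript may not be counted in either group.

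The long noncoding RNA gene Foxl2os lies 308 bases from Foxl2, on the opposite strand and without overlap, and it rose as well. It stood at 12.6, 8.83 and 9.53 CPM in cKO testes and at 1.55, 1.20 and 1.67 CPM in WT testes. The order of the cKO libraries was that of Foxl2, and the WT libraries were all low. Its log2 fold change was 2.80 (SE 0.288, edgeR adjusted p = 0.000352). The strand setting of the counting is not given, and reads that run past the end of a gene model cannot be told apart by strand here. Faim, the nearest protein-coding gene on the other side at 40412 bases, missed the threshold (log2 fold change 0.25, edgeR adjusted p = 0.518).

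Runx1 rose to 33.8 ± 13.3 CPM in cKO, against 6.31 ± 1.44 CPM in WT testes (SD, n = 3 each). Single libraries held 48.8, 23.8 and 28.7 CPM in cKO testes and 6.52, 4.78 and 7.64 CPM in WT testes. The groups did not overlap, and cKO library 1 stood well above the other cKO libraries. By edgeR, the fold change came to 2.41 on the log2 scale (SE 0.283, 95% interval 1.79 to 3.04, adjusted p = 0.000754), and 2.05 without that library. The gene (MGP_C57BL6NJ_G0023476) is on chromosome 16, minus strand, from 96689897 to 96922980 in the files. The antisense RNA Gm26626 lies inside it, and averaged only 0.195 CPM in cKO testes and 0.0221 CPM in WT testes.

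Runx1 is also a factor of blood cells, so blood cell markers were set beside it. The summed level of 15 leukocyte markers was 107 to 122 CPM in cKO testes and 90.8 to 124 CPM in WT testes, and none of the 14 tested passed in edgeR (1 at an unadjusted p under 0.05), nor in limma-voom or DESeq2. Ptprc, which encodes the leukocyte surface protein CD45, stood at 4.73 CPM in cKO testes and 3.87 CPM in WT testes. Of 8 tested erythroid and blood progenitor genes, the alpha globin gene Hba-a1 rose (log2 fold change 1.57, edgeR adjusted p = 0.0292, a call lost in 5 of 15 alternative fits, among them those without cKO library 3, WT library 1 or WT library 3), and 7 were not called. In edgeR 12.5% of these 8 genes were thus called higher, where the share over all tested genes was 1.50%. Fold changes were positive for 7 of the 8, with a median of 0.46 on the log2 scale. An unadjusted p under 0.05 was found for 2 of them in edgeR. The summed level of the erythroid and blood progenitor list was 123 to 369 CPM in cKO testes, highest in cKO library 3. In WT testes that sum was 93.1 to 139 CPM. The part of blood cells in the Runx1 difference was not tested. The other runt genes, picked for mention once their values were known, were not called. Runx3 stood at 7.55 ± 2.15 CPM in cKO testes and 12.6 ± 3.48 CPM in WT testes (edgeR adjusted p = 0.215), Runx2 at 1.54 ± 0.725 CPM in cKO testes and 1.997 ± 0.694 CPM in WT (edgeR adjusted p = 0.776), and Cbfb, the shared partner subunit, at 140 ± 15.6 CPM in cKO testes and 160 ± 5.29 CPM in WT (edgeR adjusted p = 0.468).

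Nr0b1, the most abundant of the 6 per gene length, rose by a smaller factor. It stood at 33.5, 30.1 and 26.7 CPM in cKO testes and at 13.3, 16.47 and 10.7 CPM in WT testes. The groups were apart, and the spread within each was small beside the gap. By edgeR, the fold change came to 1.16 on the log2 scale (SE 0.188, 95% interval 0.75 to 1.57, adjusted p = 0.00592), a 2.23-fold ratio of means. The gene (MGP_C57BL6NJ_G0036389) lies on the X chromosome, plus strand, from 84797728 to 84803293. Its relative Nr0b2, named after its values were seen, stood at 3.84 ± 0.980 CPM in cKO testes and 7.62 ± 1.45 CPM in WT testes and missed the threshold (log2 fold change -0.98, edgeR adjusted p = 0.103).

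Nr0b1 is known in Leydig cells and the adrenal cortex besides supporting cells. The 6 Leydig cell markers summed to 6832, 4996 and 5308 CPM in cKO testes and to 4487, 4444 and 3785 CPM in WT testes. The groups did not overlap, yet none of the 6 was called by edgeR (4 at an unadjusted p under 0.05, all 6 fold changes positive, median 0.47). DESeq2 called 3 of them higher and limma-voom 1, and the Leydig hormone gene Insl3 was called higher in 4 of 15 alternative fits. Adrenal markers summed to 33.97 to 60.2 CPM in cKO testes and 42.4 to 60.7 CPM in WT testes, and the adrenal cortex enzyme gene Cyp11b1 was at 33.8 CPM in cKO testes and 25.6 CPM in WT testes (edgeR adjusted p = 0.623). Of 6 adrenal genes tested, 1 was lower and 5 were not called (16.7% called, against 1.84% of all tested genes called lower). The lower one was Pnmt, an enzyme gene of the adrenal medulla, at 0.507 ± 0.246 CPM in cKO testes and 9.18 ± 3.79 CPM in WT (edgeR adjusted p = 0.000568). Th and Chga of the same list, named after their values were seen, were not called. Th stood at 0.616 CPM in cKO testes and 0.884 CPM in WT (edgeR adjusted p = 0.709), and Chga at 6.46 CPM in cKO testes and 5.04 CPM in WT (edgeR adjusted p = 0.774). The part of Leydig and adrenal cells in the Nr0b1 difference was not tested.

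Fst was not called, although its levels did not overlap between the groups. It stood at 5.39, 7.76 and 8.15 CPM in cKO testes and at 2.36, 4.78 and 4.89 CPM in WT testes. The lowest cKO library was close to the highest WT library, and levels without overlap in the upward direction were found for 10.7% of all tested genes. By edgeR, the fold change came to 0.82 on the log2 scale (SE 0.327, 95% interval 0.11 to 1.54, adjusted p = 0.243). Fst (MGP_C57BL6NJ_G0021342) lies on chromosome 13, minus strand, from 120588326 to 120594778.

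Follistatin acts on activins, whose genes were measured alongside. Of 13 tested genes for activin and inhibin subunits, their receptors, SMADs and follistatin relatives, 1 was lower, none was higher and 12 were not called (7.69% called, against 3.35% of all tested genes; median log2 fold change -0.10; 6 at an unadjusted p under 0.05; DESeq2 called 3 lower). The lower one was Inhbb, the inhibin βB subunit gene of Sertoli cells, at 105 ± 43.1 CPM in cKO testes and 283 ± 46.8 CPM in WT testes (log2 fold change -1.43, SE 0.242, edgeR adjusted p = 0.00775). Inhba, the βA subunit gene, stood at 94.1 ± 13.4 CPM in cKO testes and 87.9 ± 24.1 CPM in WT testes (edgeR adjusted p = 0.853). Inha, the α subunit gene, named after its values were seen, was at 288 ± 47.1 CPM in cKO testes and 427 ± 68.5 CPM in WT testes (edgeR adjusted p = 0.0925).

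Irx3 and Irx5 were rare transcripts. Irx3 had 25, 37 and 40 counts in cKO and 33, 26 and 16 counts in WT, or 1.64, 2.46 and 2.30 CPM in cKO, against 2.05, 1.73 and 0.955 CPM in WT. The groups overlapped, and edgeR gave a log2 fold change of 0.44 (SE 0.433, 95% interval -0.52 to 1.39, adjusted p = 0.684), an interval that holds both a fall and a more than 2-fold rise. Irx5 had 2, 17 and 11 counts in cKO and 2, 4 and 8 counts in WT. The lowest cKO and the lowest WT library held the same count, and the sums were 30 in cKO (exact 95% Poisson interval 20.2 to 42.8, counting error only) and 14 in WT (7.65 to 23.5). It did not pass the filter on low counts. Without that filter its log2 fold change was 1.10 (edgeR adjusted p = 0.680), so no difference was called. Its counts were few and spread widely among the cKO libraries, so a difference is not excluded either. Both genes lie in the same Iroquois cluster on chromosome 8, Irx3 (MGP_C57BL6NJ_G0034429) from 96488743 to 96492135 on the minus strand and Irx5 (MGP_C57BL6NJ_G0034430) from 97089255 to 97092915 on the plus strand.

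Of 12 tested genes on a list of relatives and neighbours of the 6 regulators, Foxl2os was higher and 11 were not called (8.33% called, against 3.35% of all tested genes; median log2 fold change -0.14). In edgeR 5 of the 12 had an unadjusted p under 0.05, and DESeq2 called 1 lower besides 1 higher. Clic6, the nearest protein-coding neighbour of Runx1, is not on that list; it was called higher, and its values are given with the genes most like Foxl2. Irx3os, an antisense RNA that overlaps Irx3, averaged 0.0574 CPM in cKO testes and 0.163 CPM in WT testes. Crnde, a noncoding RNA gene 1676 bases from Irx5 on the opposite strand, stood at 2.15 ± 1.59 CPM in cKO testes and 2.27 ± 0.831 CPM in WT testes (edgeR adjusted p = 0.957). Fto, the large gene beside Irx3, stood at 147 CPM in cKO testes and 138 CPM in WT (edgeR adjusted p = 0.741). Crnde and Fto are named after their values were seen. Irx1 averaged 0.346 CPM in cKO testes and 0.521 CPM in WT testes and was not tested. Irx2 was at 0.394, 4.11 and 0.516 CPM in cKO testes and at 1.99, 0.996 and 1.19 CPM in WT testes. Its highest value was a single cKO library, and the sign of its log2 fold change of 0.25 (edgeR adjusted p = 0.912) turned to -1.59 without that library.

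The 6 genes did not move together among the cKO libraries. Foxl2, Foxl2os, Runx1 and Nr0b1 were highest in cKO library 1, whereas Fst, Irx3 and Irx5 were lowest there among the cKO libraries. Relative to each gene's mean over the 6 libraries, on the log2 CPM scale with a prior count of 2, cKO library 1 stood at 1.79 for Foxl2, 1.78 for Runx1 and 0.74 for Nr0b1. The same library stood at 0.06 for Fst, -0.11 for Irx3 and -0.94 for Irx5. With 3 libraries this order was not tested, and Irx5 rests on very few counts.

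**Figure D2:**
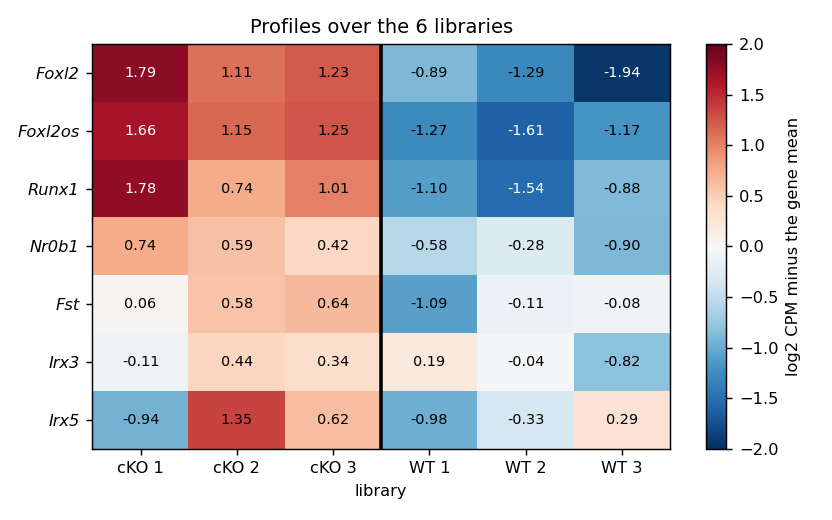
Each cell gives log2 CPM minus the mean of that gene over the 6 libraries (columns), for the 6 genes and Foxl2os (rows); red is above and blue below the mean. Foxl2, Foxl2os, Runx1 and Nr0b1 are positive in all cKO and negative in all WT libraries, with cKO library 1 the highest, whereas Irx3 and Irx5 have both signs in each group.

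Per gene length, the order of the levels differed between the groups. In cKO it was Nr0b1 at 16.6 ± 1.85 FPKM, Foxl2 at 6.76 ± 1.81, Fst at 3.02 ± 0.637, Runx1 at 2.84 ± 1.11, Irx3 at 0.811 ± 0.164 and Irx5 at 0.261 ± 0.206 FPKM. Fst and Runx1 overlapped over the cKO libraries, and each other pair of neighbours in that order lay apart. In WT the order was Nr0b1 at 7.40 ± 1.60 FPKM, Fst at 1.70 ± 0.612, Foxl2 at 0.937 ± 0.355, Irx3 at 0.598 ± 0.211, Runx1 at 0.529 ± 0.1201 and Irx5 at 0.119 ± 0.0736 FPKM. Fst and Foxl2, Foxl2 and Irx3, and Irx3 and Runx1 overlapped over the WT libraries. Runx1 is divided by a model of 11827 bases that joins all its exons and Foxl2 by one of 1241 bases, so their places depend on these models, in both groups alike.

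Levels were also set against Sox9, whose product directs the Sertoli cell lineage, within each library. Foxl2 FPKM were 49.3%, 36.5% and 58.85% of Sox9 FPKM in cKO and 4.48%, 3.57% and 1.79% in WT. Runx1 FPKM were 22.9%, 13.3% and 23.8% of Sox9 FPKM in cKO and 1.90%, 1.50% and 2.01% in WT. Nr0b1 FPKM were above those of Sox9 in every cKO library, at 103%, 110.5% and 145%, and below them in every WT library, at 25.4%, 33.8% and 18.35%. The groups lay apart for each of these ratios (exact permutation test, two-sided p = 0.10, the smallest that 3 against 3 allows, and 0.117 adjusted over 7 ratios). That outcome was fixed beforehand, since each of these regulators was higher and Sox9 lower in every cKO library. The test therefore adds nothing to the results of the single genes. Sox9 itself was lower in cKO, at 59.8 ± 16.4 CPM against 122 ± 10.8 CPM in WT testes (log2 fold change -1.03, edgeR adjusted p = 0.0106, a call lost without WT library 1 or WT library 3), so each ratio holds both changes. Between the regulators, Foxl2 relative to Nr0b1 was 33.1% to 48.0% in cKO and 9.77% to 17.6% in WT, without overlap (exact permutation p = 0.10, 0.117 adjusted). Runx1 relative to Nr0b1 was also apart, at 12.1% to 22.3% in cKO and 4.44% to 10.9% in WT (exact permutation p = 0.10, 0.117 adjusted). Foxl2 relative to Runx1 overlapped, at 215.5%, 274% and 247% in cKO and 236%, 238% and 89.35% in WT (exact permutation p = 0.40).

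**Figure D3:**
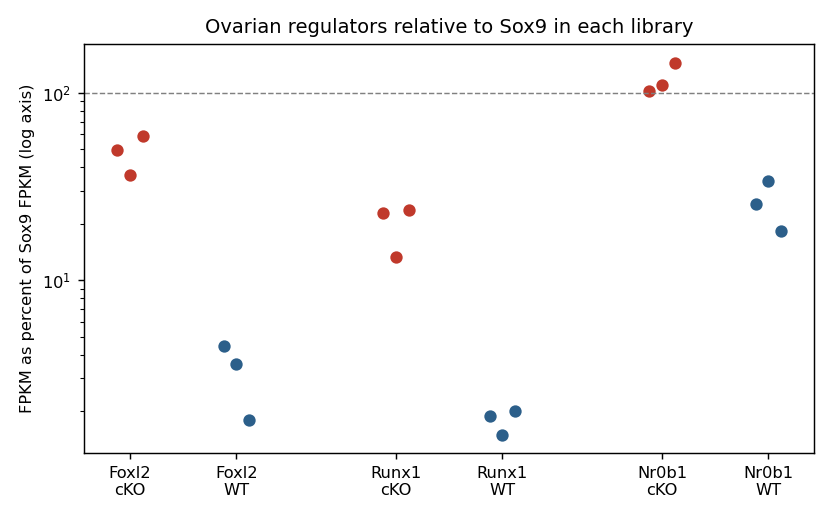
FPKM of Foxl2, Runx1 and Nr0b1 as a percent of Sox9 FPKM in the same library (log axis), cKO left of WT for each gene; the dashed line marks 100%. Nr0b1 lies above the line in the 3 cKO libraries and below it in the 3 WT libraries, and Foxl2 lies at 36.5% to 58.85% in cKO and at 1.79% to 4.48% in WT.

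Other genes of the ovarian pathway were called in both directions. Of 25 listed and tested, 2 were higher, 2 lower and 21 not called (16% called, against 3.35% of all tested genes, and 8 at an unadjusted p under 0.05). The median log2 fold change was 0.14, against 0.0026 over all tested genes. Wnt4, the signal needed for ovary formation, rose to 243, 220 and 250 CPM in cKO, against 74.6, 86.0 and 57.4 CPM in WT testes (log2 fold change 1.71, SE 0.153, edgeR adjusted p = 0.00015). Per gene length it was far more abundant than the 6 regulators, at 57.6 ± 3.75 FPKM in cKO and 17.6 ± 3.50 FPKM in WT. Rspo1, which acts beside WNT4 in the ovary, was not called, at 19.98 ± 2.73 CPM in cKO testes and 19.4 ± 2.37 CPM in WT testes (95% confidence interval of the log2 fold change -0.33 to 0.42, edgeR adjusted p = 0.927), and the sign of its change turned without cKO library 3 or WT library 2.

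Emx2, a homeobox gene needed for the early gonad of both sexes, rose to 35.2, 23.4 and 28.8 CPM in cKO, against 15.4, 12.9 and 13.5 CPM in WT testes. Its log2 fold change was 1.06 (SE 0.182, edgeR adjusted p = 0.00839), and its call was lost without WT library 3 (adjusted p = 0.0576). The lower genes were Hsd17b1, an estradiol-forming enzyme, at 26.1 ± 6.02 CPM in cKO testes and 102 ± 27.3 CPM in WT testes (log2 fold change -1.96, edgeR adjusted p = 0.000474), and Fshr, the receptor of follicle-stimulating hormone, at 1.49 ± 1.20 CPM in cKO testes and 12.9 ± 3.29 CPM in WT testes (-3.12, edgeR adjusted p = 0.00393). Both are also transcribed in Sertoli cells. Genes of the list with wide intervals included Msx1 (log2 fold change 1.36, 95% confidence interval 0.36 to 2.36, edgeR adjusted p = 0.161) and Cyp19a1, the aromatase gene (-0.91, -1.91 to 0.09, edgeR adjusted p = 0.372), both named after their values were seen.

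**Figure D4:**
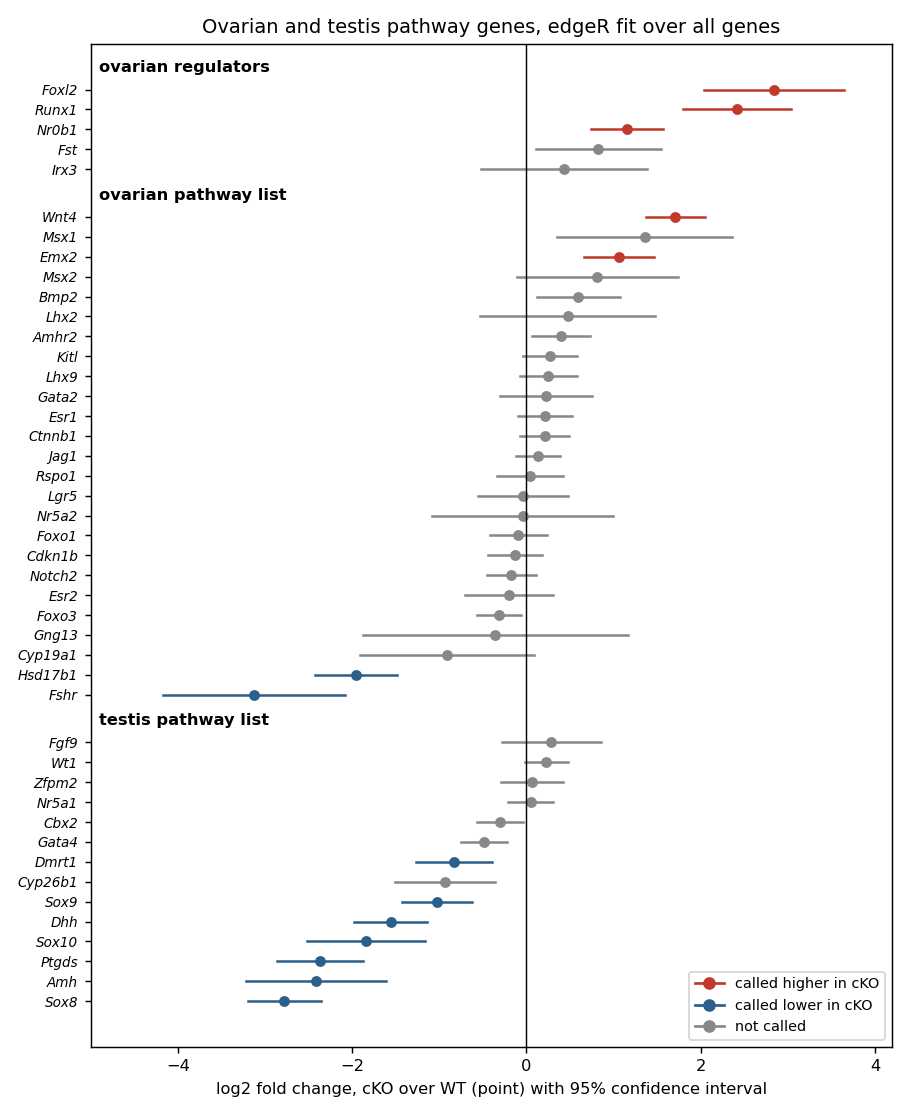
Log2 fold change of cKO over WT (horizontal axis, point) with its 95% confidence interval for the 5 tested regulators, the 25 genes of the ovarian pathway list and the 14 of the testis pathway list; red is called higher, blue called lower and grey not called. Foxl2, Runx1, Nr0b1, Wnt4 and Emx2 are the genes called higher, and 7 testis pathway genes are called lower.

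Testis pathway genes, the opposing programme, were lower or not called. Of 14 tested, 7 were lower, none was higher and 7 were not called (50% called, against 1.84% of all tested genes called lower; median log2 fold change -0.88; 10 at an unadjusted p under 0.05). Amh, the hormone of Sertoli cells, stood at 168 ± 100 CPM in cKO testes and 895 ± 239 CPM in WT testes. Foxl2 FPKM were 3.28% to 11.7% of Amh FPKM in cKO and 0.106% to 0.333% in WT (exact permutation p = 0.10, 0.117 adjusted). This ratio was bound to lie apart, since Foxl2 was higher and Amh lower in every cKO library. Sox8, a relative of Sox9, stood at 15.3, 15.5 and 9.18 CPM in cKO testes and at 90.6, 90.4 and 92.1 CPM in WT testes. Not called, and named after their values were seen, were Nr5a1 (log2 fold change 0.05, edgeR adjusted p = 0.884), the factor that NR0B1 restrains, and Wt1 (0.23, edgeR adjusted p = 0.370), which is shared by Sertoli and pregranulosa cells.

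Markers of other cells were read for the same libraries. The 7 Sertoli cell markers summed to 719 to 1130 CPM in cKO testes and 2018 to 2936 CPM in WT testes. Sox9, Amh, Sox8 and Dhh of this list are also on the testis pathway list, and Inhbb is also on the list of activin genes. Their calls are counted in both places, so these lists are not separate evidence. Of the 7 Sertoli cell markers, 6 were lower and 1 was not called (85.7% called, against 1.84% of all tested genes called lower). The uncalled one, Cldn11, went the other way, with every cKO library above every WT library. It stood at 17.8 ± 1.20 CPM in cKO testes and 14.2 ± 2.56 CPM in WT testes (log2 fold change 0.33, edgeR adjusted p = 0.427). The summed level leans on abundant genes, with Clu at 917 CPM and Amh at 895 CPM in WT testes. The Leydig markers are given above with Nr0b1. The 9 interstitium markers summed to 2997 to 3674 CPM in cKO testes and 2355 to 2909 CPM in WT testes, with all fold changes positive and none called by edgeR (6 at an unadjusted p under 0.05; 3 called by DESeq2, none by limma-voom). Mesothelium markers overlapped, at 91.2 to 119 CPM in cKO testes and 84.0 to 102 CPM in WT testes, and so did mesonephros markers, at 21.5 to 30.6 CPM in cKO testes and 15.5 to 21.8 CPM in WT. EdgeR called none of 6 tested mesothelium genes (2 at an unadjusted p under 0.05; DESeq2 called 1 higher) and none of 5 mesonephros genes (1 at an unadjusted p under 0.05; none by DESeq2 or limma-voom). Germ cell markers summed to 486 to 820 CPM in cKO testes and 673 to 944 CPM in WT testes, with Mov10l1 lower among 5 tested (edgeR adjusted p = 0.0434, a call lost in 7 of 15 alternative fits). Of 10 oocyte and meiosis genes none was called by edgeR (2 at an unadjusted p under 0.05), and DESeq2 called 1 higher. Their directions were mixed, with 5 of the 10 fold changes positive. The oocyte factor gene Figla averaged 0.956 CPM in cKO testes and 0.608 CPM in WT testes. Nobox went the other way (log2 fold change -1.13, edgeR adjusted p = 0.375). Stra8, named after its values were seen, had the largest log2 fold change of the list (2.37, edgeR adjusted p = 0.0722). Its levels overlapped between the groups. Markers of Sertoli, Leydig and germ cells, as the tissue label implies, were read in every library. The part of a changed cell makeup in the rise of Foxl2, Runx1 and Nr0b1 was not tested.

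**Figure D5:**
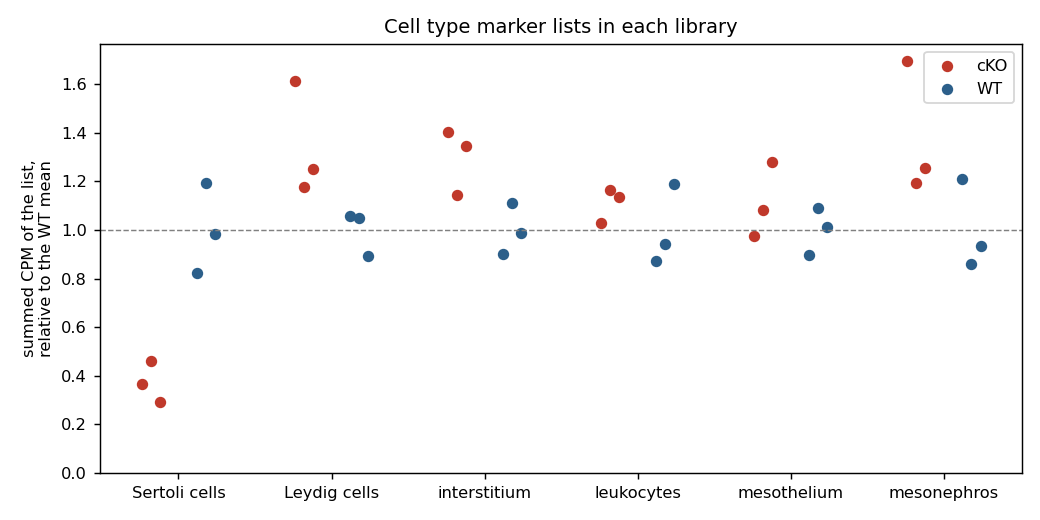
Summed CPM of each marker list in each library divided by the WT mean of that list (vertical axis, from 0), cKO left of WT; the dashed line marks 1. The Sertoli cell sum is lower in all cKO libraries, the Leydig cell and interstitium sums are higher in all of them, and the leukocyte, mesothelium and mesonephros sums overlap.

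The genes most like each called regulator were sought over the 6 libraries, as the root mean square difference of log2 CPM centred on the gene mean, among 13526 protein-coding genes of at least 2 CPM. Nearest to Foxl2 were Prss56, a protease gene, at a difference of 0.200, Haao, an enzyme gene of tryptophan breakdown, at 0.333, and Clic6, a chloride channel family gene, at 0.340. Prss56 stood at 4.37 ± 1.14 CPM in cKO testes and 0.630 ± 0.257 CPM in WT testes, and Haao at 8.39 ± 1.53 CPM in cKO testes and 1.53 ± 0.189 CPM in WT. Clic6 is also the nearest protein-coding gene to Runx1, 66545 bases away on the opposite strand. It rose to 9.99, 10.8 and 13.9 CPM in cKO, against 2.24, 1.73 and 1.37 CPM in WT testes (log2 fold change 2.70, edgeR adjusted p = 0.000379). Unlike Runx1, it was not highest in cKO library 1. Rcan1, the next protein-coding gene on that side, missed the threshold (log2 fold change -0.25, edgeR adjusted p = 0.382).

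Nearest to Runx1 were D630039A03Rik (0.255), the receptor gene Gpr55 (0.261) and Zfp365 (0.265). Gpr55 stood at 16.4, 7.10 and 7.57 CPM in cKO testes and at 1.55, 0.930 and 1.43 CPM in WT testes, with the same library highest as for Runx1. Nearest to Nr0b1 were Fgfbp3 (0.0820), Psrc1 (0.107) and Rgs2 (0.119), an inhibitor of G protein signalling at 156 ± 9.22 CPM in cKO testes and 67.2 ± 11.7 CPM in WT testes. All 9 were called higher by edgeR, as follows from likeness to a called gene, and the call of Fgfbp3 was lost whichever library was left out and that of D630039A03Rik without WT library 1 or WT library 2.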

How the data were processed

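Per the labels' protocols, poly-A RNA of E16.5 testes was read on a NovaSeq instrument. The submitters' processing notes list HISAT2 2.0.5 with GRCm38, but the gene identifiers and coordinates are those of the C57BL/6NJ strain annotation and were not mixed with GRCm38. No source used here names the counting tool or its strand setting. The deposited counts are whole reads or fragments per gene, not normalised, with 15092619 to 17431546 counts per library and a median of 282 to 329 counts per tested gene. The deposited FPKM were made by the authors from gene length and library size and were used as given. RefSeq promoter windows (GRCm38.p6) served for sequence only.

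Counts were fitted in R 4.3.3 with edgeR 4.0.16 (filterByExpr, TMM, glmQLFit, glmQLFTest, no covariate, Benjamini-Hochberg over 18383 genes). On simulated counts with 200 changed genes, the procedure recovered 52.7% of changes of 1 on the log2 scale and 87.5% of changes of 2. Of its 151 calls there, 15 were unchanged genes. Standard errors are the log2 fold change divided by the square root of F. No 2 libraries of a genotype matched within counting error (chi-square over its degrees of freedom, 12.2 to 37.4), and each counted as 1 replicate. The p-values of edgeR weigh the group difference against the spread between these libraries, with dispersions moderated across genes. Alternatives were DESeq2 1.42.0, limma-voom and limma-trend (limma 3.58.1; pseudocounts 0.1 and 1 on FPKM), other scalings and filters, the replicate number as a block, and each library left out. The 6 genes and all gene lists were chosen with earlier results of these data known. A naming rule took the 6 genes, Csnk1a1, up to 6 called members of each list by p, the first 2 of each list, and the 3 genes most like each called regulator. Not every gene taken by that rule is written out above, and some outside it are. Counts of other named genes below are of that rule. Listed genes without a matching symbol were not analysed here.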

Additional observations from a re-analysis of the deposited data

How the results depend on the processing

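Foxl2, Runx1 and Nr0b1 were called higher in all 15 alternative fits, with adjusted p of at most 0.0121, 0.0204 and 0.0418. With 1 library left out, their log2 fold changes ran from 2.58 to 3.14, from 2.05 to 2.615 and from 1.015 to 1.33, and Fst ran from 0.555 to 0.99 and Irx3 from 0.17 to 0.67 without a call. Fst (adjusted p 0.125 to 0.574) and Irx3 (0.540 to 0.964) were called in none of the 15. On log2(FPKM + 1) the values of Foxl2 and Runx1 were 1.99 and 1.29, since that pseudocount is large beside their WT levels. Irx5 could be fitted only by DESeq2 (1.12, with no adjusted p) and without the low-count filter. The ovarian pathway list had 3 to 5 calls with 1 library left out and 4 in every other alternative.

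Over all genes, 615 were called, against 1037 by DESeq2, 372 on log2(FPKM + 0.1), 397 on log2(FPKM + 1) and 1264 with no low-count filter. With 1 library left out the count ran from 272 to 723, and it was 304 without cKO library 3, 323 without WT library 1, 370 without WT library 2 and 272 without WT library 3. The cause of these shifts was not tested, beyond the smaller number of samples.

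The replicate numbers do not pair the libraries by the labels. Same-numbered libraries had correlations of their deviations from the group means of 0.017, 0.184 and 0.032, and cKO library 1 correlated best with WT library 3 (0.157). With the replicate number as a block, 696 genes were called, and Foxl2, Runx1 and Nr0b1 stood at 2.86, 2.375 and 1.17, with no call among the 6 genes changed.

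Of 674 values of 45 other named genes, 631 kept their direction and side of the threshold, 28 lost and 4 gained a call, and 11 turned sign, all in genes that were not called: Rspo1 (-0.024 to 0.156 with 1 library left out; -0.024 without cKO library 3, -0.006 without WT library 2), Inhba (-0.058 without WT library 1, up to 0.342), Irx2 (-0.503 by limma-voom, -0.256 on log2(FPKM + 0.1), -0.391 with the block, -1.59 without cKO library 2, up to 0.716 with another left out), Ddx4 (from -0.419 up; 0.109 without cKO library 1, 0.032 without WT library 1), Ptprc (-0.211 without cKO library 2, up to 0.555) and Alas2 (-0.142 without cKO library 3, up to 0.657). Low counts, and for Irx5 also their spread among the cKO libraries, limit what can be said of Irx3 and Irx5.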
